A study of Mus musculus with 12 samples.

Results

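The genes described here encode colony-stimulating factors and their receptors: Csf1 and Il34, the ligands of the receptor tyrosine kinase Csf1r, together with Csf2, Csf3 and the receptor chain Csf2ra. They were chosen by name, 6 genes of the 25514 in the data, of which 21552 are protein-coding. Each gene was represented by its transcript with the highest total count over the 12 libraries. Of the 6 genes, 5 passed the expression filter and Csf2 did not.

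Csf1r carries the signal that macrophages need to survive, divide and mature, and Csf1 and Il34 bind it with different tissue distributions. Renal tubular epithelium is a known source of both ligands after injury, and Csf1r has also been described on tubular cells. Csf2 (GM-CSF) acts through a specific α chain, Csf2ra, which needs the shared β chain Csf2rb to signal, whereas Csf3 (G-CSF) has its own receptor, Csf3r, and drives the production of neutrophils.

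The cells were conditionally immortalized proximal tubule (PT) cells from male mice with floxed alleles of Tgfbr2, the gene of the type II TGF-β receptor (TβRII), and the temperature-sensitive T antigen H2ts6, kept for 5 days at 37 °C. Tgfbr2-/- PT cells (H2ts6;Tgfbr2-/-) were made from Tgfbr2fl/fl PT cells (H2ts6;Tgfbr2fl/fl) by Cre recombinase in culture, so the genotypes are 2 cell lines, and deletion of the receptor and any other difference between the lines cannot be told apart. Each genotype was sequenced untreated, in normal medium, and after 24 h of H2O2 in serum-free medium, which gave 4 groups of 3 libraries. The dose is 200 mM in the sample labels and a thousandth of that in the study's methods, and serum withdrawal and H2O2 cannot be told apart. The study's methods describe its cell culture work in general as repeated independently or on biological replicates, and the labels do not say which holds for these libraries, so p values measure the spread between them.

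The counts that represent the genes summed to between 15870155 and 20857618 per library. Normalized counts are scaled to a library of 17351835 counts. Tgfbr2 itself fell by 0.35 on the log2 scale in untreated Tgfbr2-/- PT cells, from 8393 ± 843 to 6605 ± 220 normalized counts (SD, n = 3), and these counts cover the whole transcript, not the deleted exon alone. With H2O2 it fell by 0.92 between genotypes. Among defining markers of the proximal tubule, Lrp2, Aqp1 and Cdh6 were abundant in every group, each with a mean of at least 3354 normalized counts, while Slc34a1, Hnf4a and Vil1 had at most 3 counts in any library and Slc22a6 had 0. The summed level of the 13 proximal tubule markers was 35806 to 50762 normalized counts in the 6 Tgfbr2fl/fl libraries and 18436 to 21752 in the 6 Tgfbr2-/- libraries. That of 10 markers of kidney epithelium and tubular injury was 22368 to 26162 and 42127 to 45166. The 6 markers of endothelial cells summed to 193 to 199.9 in untreated Tgfbr2fl/fl libraries, 108 to 116 with H2O2, 609.8 to 710.1 in untreated Tgfbr2-/- libraries and 178 to 201 with H2O2. Kdr and Egfl7 made up nearly all of these sums, while Pecam1, Cdh5, Emcn and Tek had at most 5 counts in any library. The 8 markers of fibroblasts summed to 6078 to 7387, 2819 to 3231, 2527 to 2847 and 712 to 861 in the same order of groups. Their members went opposite ways: between untreated genotypes 2 of the 5 tested rose and 3 fell, where 64.7% of all genes tested were called. Of these, Pdgfrb passed the expression filter only through Tgfbr2fl/fl libraries and Dcn only through treated Tgfbr2-/- libraries. Their calls are not independent of that filter. Postn fell from a mean of 6101 to 197 normalized counts and Acta2 rose from 469 to 2495. The part of these differences in the results was not tested. Untreated Tgfbr2fl/fl replicates 1 and 3 differed more than any other pair of replicates, with a chi-square of 12.7 per gene against 3.64 to 8.29 for the other pairs.

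Fitted differences of Csf1, Il34, Csf3 and Csf2ra were larger between genotypes than with H2O2. Between untreated genotypes all 5 tested genes passed an adjusted p of 0.05, against 64.7% of all genes tested, and 4 of them also changed at least 1.5-fold, against 28.0%. Csf3 is among these genes here and with H2O2. It passed the expression filter only through Tgfbr2-/- libraries, so its genotype calls are not independent of that filter. Il34, Csf3 and Csf2ra were higher and Csf1 and Csf1r lower in Tgfbr2-/- PT cells. With H2O2, 4 of the 5 differed between genotypes (background 66.4%), all 4 of them at least 1.5-fold (background 30.7%), and Csf1r no longer did. H2O2 in serum-free medium changed 1 gene in Tgfbr2fl/fl PT cells, Csf2ra, at both limits (backgrounds 41.6% and 8.24%). In Tgfbr2-/- PT cells H2O2 changed 3, Csf1r, Csf2ra and Il34 (background 39.6%), and 0 by 1.5-fold (background 8.33%). For 0 genes did the H2O2 effect differ between genotypes at an adjusted p of 0.05 (edgeR; backgrounds 10.2% and 2.36%), with 1 gene, Csf2ra, at an unadjusted p of 0.05 and 0 by DESeq2. With 5 genes tested, counts read beside these backgrounds show nothing particular to the family.

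**Figure D1:**
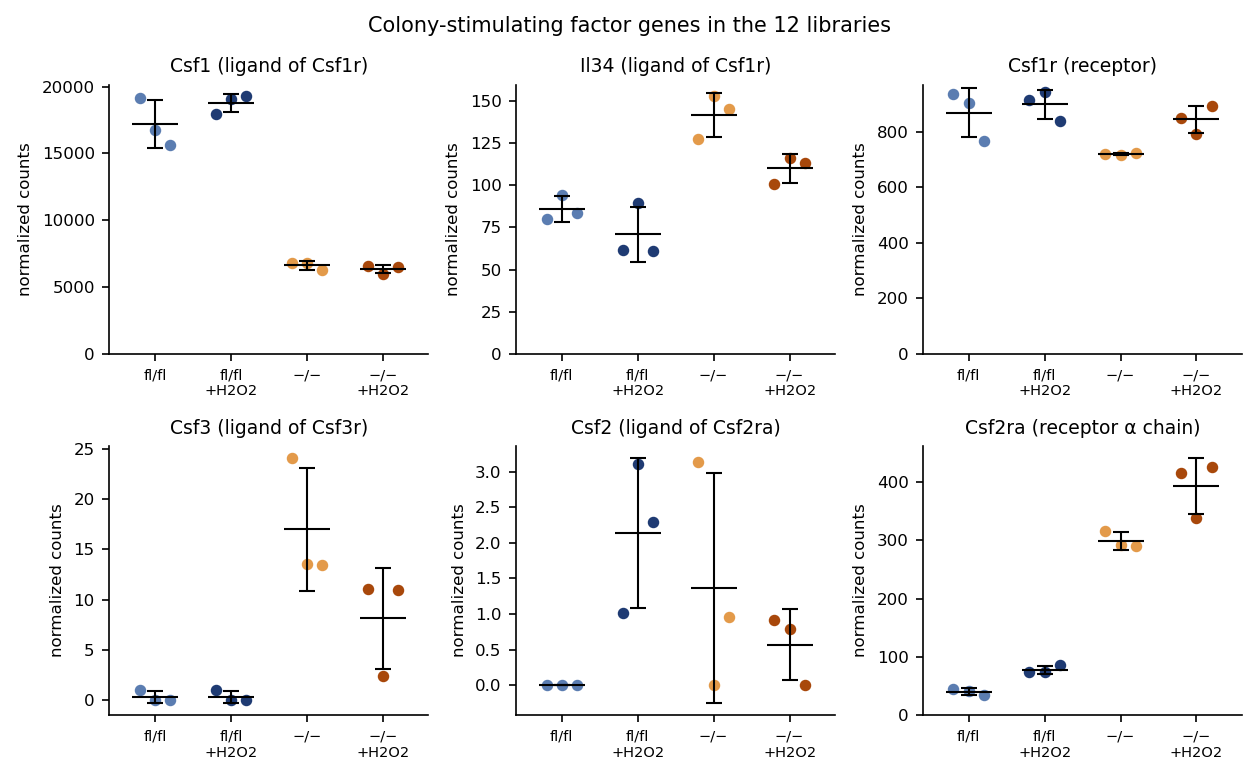
Normalized counts of the 6 genes (y axes, each from 0 or just below it) in the 4 groups (x axes); points are libraries, wide bars are group means and error bars are SD (n = 3). Csf1 lay between 15655 and 19272 in Tgfbr2fl/fl PT cells and between 5975 and 6792 in Tgfbr2-/- PT cells, Csf2ra had the opposite order, and Csf2 stayed at or below 3.14 in every library.

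Csf1, at chr3:107741048-107760469 on the minus strand of GRCm38.p6, encodes macrophage colony-stimulating factor. Without treatment it had 19176, 16746 and 15655 normalized counts in Tgfbr2fl/fl PT cells and 6783, 6792 and 6237 in Tgfbr2-/- PT cells. With H2O2 it had 17971, 19079.8 and 19272 in Tgfbr2fl/fl PT cells and 6529.8, 5975 and 6449 in Tgfbr2-/- PT cells. The genotypes did not overlap under either condition, while treated and untreated libraries of a genotype did.

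The log2 fold change of Csf1 between genotypes was -1.38 ± 0.07 (SE, adjusted p = 1.43e-17) without and -1.57 ± 0.07 (adjusted p = 4.68e-19) with H2O2. H2O2 gave a log2 fold change of 0.13 ± 0.07 (adjusted p = 0.144) in Tgfbr2fl/fl PT cells and -0.06 ± 0.07 (adjusted p = 0.499) in Tgfbr2-/- PT cells, and the difference of these effects was -0.19 ± 0.10 (adjusted p = 0.238). Replicate 1 of untreated Tgfbr2fl/fl PT cells was the highest of its group and decided these last calls: without it, Csf1 rose with H2O2 by 0.22 (adjusted p = 0.00668) and the difference of effects was -0.30 (adjusted p = 0.0195). Csf1 stayed an abundant transcript in both lines. Its level per kb lay at the 99.1 percentile of the 18086 genes with any count in untreated Tgfbr2fl/fl PT cells and at the 96.9 percentile in untreated Tgfbr2-/- PT cells.

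Csf1 is made in forms that differ in exon 6, which carries the stretch through which the long secreted form is cleaved and modified. The 2 most counted transcripts share exons 1 to 5 and differ in where exon 6 begins, as the transcripts of GENCODE M39 on GRCm39 show. Their junctions are given because they define the bases that can tell the forms apart, with the last 30 bases of exon 5 in lower case and the first 30 bases of exon 6 in capitals.
Csf1 long form (ENSMUST00000014743): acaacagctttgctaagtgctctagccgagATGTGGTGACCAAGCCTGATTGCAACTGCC
Csf1 short form (ENSMUST00000118593): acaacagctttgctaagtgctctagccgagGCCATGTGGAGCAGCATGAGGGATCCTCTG

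The long form holds 885 bases that the short form lacks, transcript bases 972 to 1856. Counts that fell on these bases alone are the difference of the transcripts' counts, since a read on shared bases was counted on both. They made up between 24.8% and 27.8% of Csf1 counts in the 12 libraries, while the 885 bases are 21.1% of the transcript's length. The group ranges overlapped: 25.5% to 26.2% in untreated Tgfbr2fl/fl PT cells, 24.9% to 27.8% with H2O2, 24.8% to 26.9% in untreated Tgfbr2-/- PT cells and 25.6% to 26.4% with H2O2. All 7 counted transcripts of Csf1 fell between genotypes, by 1.38 to 1.43 on the log2 scale without and by 1.56 to 1.63 with H2O2. None of the 7 passed the test for H2O2 in either genotype. These transcripts share most of their reads and are not independent measurements.

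**Figure D2:**
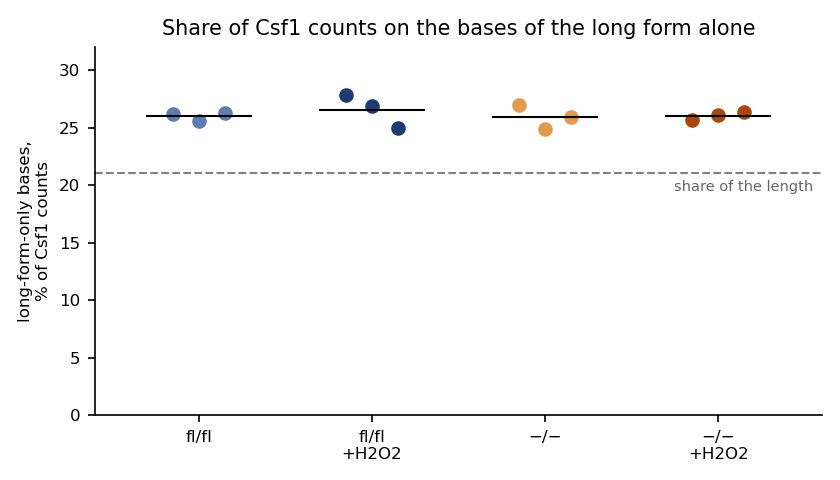
Percent of Csf1 counts on the bases of the long form alone (y axis, from 0) in the 4 groups (x axis); points are libraries, bars are group means and the dashed line is the 21.1% of the transcript's length that these bases take. All 12 libraries lay between 24.8% and 27.8%, above the line.

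The 250 bases before the start of Csf1 are shown as the window in which motifs were searched. The sequence is RefSeq's for GRCm38.p6, at chr3:107760470-107760719 on the minus strand, with a match to the NF-κB motif in capitals, at positions -154 to -145 from the start.
Csf1 promoter: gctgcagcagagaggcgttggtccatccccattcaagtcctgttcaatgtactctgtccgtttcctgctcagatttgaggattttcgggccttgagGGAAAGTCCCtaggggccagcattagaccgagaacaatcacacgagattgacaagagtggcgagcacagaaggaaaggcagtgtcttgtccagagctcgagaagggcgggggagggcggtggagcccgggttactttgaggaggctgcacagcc

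Such a match stood in 3.9% of the 32851 promoter windows of the same length in that table, searched on both strands. The AP-1 motif TGANTCA (6.75% of windows), the antioxidant response element TGACNNNGC (10.2%), the Smad motif CAGACA (17.1%) and the TEAD motif GGAATG (12.6%) had no match in the Csf1 window. Windows were examined for 3 of the 6 genes: that of Csf2 held a TEAD match and that of Csf2ra none of the 5 motifs. No window was found by symbol for Il34 and Csf3. Members on chromosome 18, where Csf1r lies, were left out of the search.

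Il34, at chr8:110741829-110805949 on the minus strand, encodes the other ligand of Csf1r. Without treatment it had 80.0, 94.6 and 83.9 normalized counts in Tgfbr2fl/fl PT cells and 128, 153 and 146 in Tgfbr2-/- PT cells. With H2O2 it had 61.9, 89.9 and 60.7 in Tgfbr2fl/fl PT cells and 101, 116 and 113 in Tgfbr2-/- PT cells. Every Tgfbr2-/- library was above every Tgfbr2fl/fl library, and within Tgfbr2-/- PT cells the treated libraries were all below the untreated ones.

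Il34 was higher in Tgfbr2-/- PT cells by a log2 fold change of 0.72 ± 0.15 (adjusted p = 9.29e-05) without and 0.63 ± 0.16 (adjusted p = 7.53e-04) with H2O2, opposite in direction to Csf1. The gene overlaps Vac14 and Mtss2 on the opposite strand, with which the exons of its counted transcripts share 0 bases. Its representative transcript shares 75 exon bases with Gm15895 and 22 with Gm15894. These are long non-coding RNA genes on the opposite strand, which were not analysed here. With H2O2 it fell by 0.37 ± 0.14 on the log2 scale in Tgfbr2-/- PT cells (adjusted p = 0.0367). Its change of -0.28 ± 0.17 in Tgfbr2fl/fl PT cells did not pass (adjusted p = 0.196), nor did the difference of the effects, -0.09 ± 0.22 (adjusted p = 0.858). The call in Tgfbr2-/- PT cells was fragile: the adjusted p was 0.0604 with DESeq2, and it was 0.135 and 0.0896 without untreated replicates 2 and 3, and 0.140 and 0.0632 without treated replicates 1 and 3. In Tgfbr2fl/fl PT cells the change was -0.48 (adjusted p = 0.0408) without treated replicate 2, the highest of its group.

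Compared per kb of transcript, Csf1 exceeded Il34 in every library. Normalized counts per kb were 4096 ± 429 for Csf1 and 45.9 ± 4.04 for Il34 in untreated Tgfbr2fl/fl PT cells, and 1573 ± 75.7 and 75.7 ± 6.96 in untreated Tgfbr2-/- PT cells (SD, n = 3). The ratio of Csf1 to Il34 was thus 89.9 ± 15.1 in untreated Tgfbr2fl/fl PT cells, 122 ± 24.4 with H2O2, 20.9 ± 2.48 in untreated Tgfbr2-/- PT cells and 25.8 ± 3.04 with H2O2. Il34 made up between 0.700% and 1.25% of the summed Csf1 and Il34 level per kb in the 6 Tgfbr2fl/fl libraries and between 3.33% and 4.96% in the 6 Tgfbr2-/- libraries, with no overlap. The ratio itself was not tested.

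**Figure D3:**
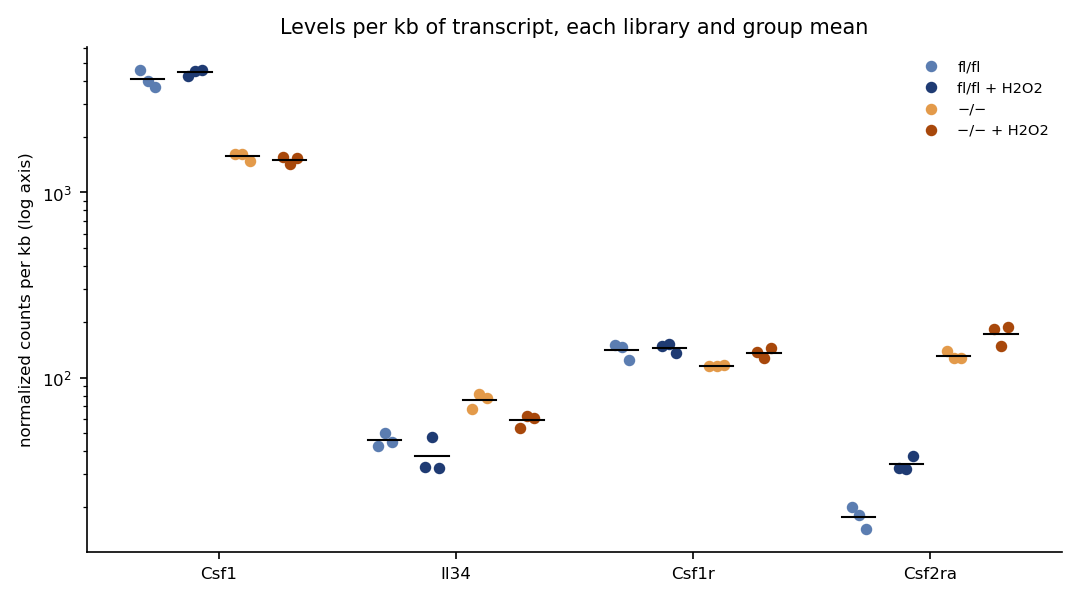
Normalized counts per kb of transcript (y axis, log scale) of Csf1, Il34, Csf1r and Csf2ra; points are libraries coloured by group and lines are group means. Csf1 lay above the other 3 genes in every library, and the mean of Csf2ra moved from below that of Il34 in Tgfbr2fl/fl PT cells to about the level of Csf1r in Tgfbr2-/- PT cells.

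Csf1r, on chromosome 18, encodes the receptor of both ligands. Without treatment it had 934, 904 and 767 normalized counts in Tgfbr2fl/fl PT cells and 717, 714 and 724 in Tgfbr2-/- PT cells. With H2O2 it had 913, 942 and 839 in Tgfbr2fl/fl PT cells and 847, 792 and 891 in Tgfbr2-/- PT cells. The untreated Tgfbr2-/- libraries were the lowest of the 12, and the other 3 groups overlapped.

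Csf1r fell by 0.27 ± 0.07 on the log2 scale between untreated genotypes (adjusted p = 0.00169), and with H2O2 the difference was -0.09 ± 0.07 (adjusted p = 0.255). H2O2 raised it by 0.23 ± 0.07 in Tgfbr2-/- PT cells (adjusted p = 0.0124), with a log2 fold change of 0.05 ± 0.07 in Tgfbr2fl/fl PT cells (adjusted p = 0.616). The difference of these effects was 0.18 ± 0.10 (adjusted p = 0.296). The rise with H2O2 did not pass without treated Tgfbr2-/- replicate 3, with 0.19 (adjusted p = 0.0747).

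The last exon of the representative Csf1r transcript shares 1461 bases with exons of Hmgxb3 on the opposite strand, and whether reads were counted by strand is not given in the sources used here. Both calls depended on the transcript. On the transcript without this overlap that had the most counts, which retains an intron, the genotypes differed by -0.21 ± 0.09 without H2O2 (adjusted p = 0.0449), and the H2O2 effect in Tgfbr2-/- PT cells was 0.19 ± 0.09 (adjusted p = 0.0837). The other 3 without the overlap gave -0.19, -0.18 and 0.13 between untreated genotypes, none of which passed (adjusted p = 0.206, 0.235 and 0.557). For H2O2 in Tgfbr2-/- PT cells the same 3 gave 0.39, 0.40 and 0.30, of which the first and second passed (adjusted p = 0.0158, 0.0121 and 0.166). Per kb, Csf1r had 140 ± 14.4 normalized counts in untreated Tgfbr2fl/fl PT cells and 116 ± 0.759 in untreated Tgfbr2-/- PT cells (SD, n = 3). The level of Csf1 per kb was 29.3 ± 1.66 times that of Csf1r in untreated Tgfbr2fl/fl PT cells, 31.0 ± 2.60 times with H2O2, 13.6 ± 0.736 times in untreated Tgfbr2-/- PT cells and 11.1 ± 0.352 times with H2O2.

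Csf1r is used as a marker of macrophages, so the other myeloid markers are given beside it. Of 20 listed markers, 6 had 0 counts in all 12 libraries (Adgre1, Itgax, Tyrobp, C1qa, C1qb and C1qc) and these were among 9 that had at most 3 counts in any library. The list summed to between 583 and 623 normalized counts in untreated Tgfbr2fl/fl libraries, 574 to 647 with H2O2, 662 to 704 in untreated Tgfbr2-/- libraries and 756 to 772 with H2O2. Of the 4 that passed the filter, the lysosomal protein gene Cd68 and the pore-forming Mpeg1 rose between genotypes, from 136 ± 8.26 to 234 ± 11.5 and from 10.1 ± 3.78 to 99.7 ± 5.12 normalized counts without treatment. Spi1, which encodes the myeloid transcription factor PU.1, rose from 1.45 ± 1.64 to 157 ± 11.6, and Cd14, a co-receptor for endotoxin, fell from 438 ± 19.0 to 163 ± 18.9. Spi1 passed the filter only through Tgfbr2-/- libraries, so its rise is not independent of that filter. Of 6 T and NK cell markers, 4 had 0 counts in all libraries. The part of these genes in the levels of Csf1r and Csf2ra was not tested. Fewer cells of a type and less RNA per cell cannot be told apart in bulk libraries.

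Csf2ra, at chr19:61217191-61228461 on the minus strand, encodes the ligand-specific chain of the Csf2 receptor. Without treatment it had 45.2, 41.2 and 34.4 normalized counts in Tgfbr2fl/fl PT cells and 317, 291 and 290.1 in Tgfbr2-/- PT cells. With H2O2 it had 74.1, 73.3 and 86.0 in Tgfbr2fl/fl PT cells and 416, 339 and 427 in Tgfbr2-/- PT cells. No 2 of the 4 groups overlapped.

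Csf2ra was the only one of the 5 tested genes that H2O2 changed in both genotypes, with a log2 fold change of 0.94 ± 0.18 in Tgfbr2fl/fl PT cells (1.92-fold, adjusted p = 8.25e-05) and 0.39 ± 0.10 in Tgfbr2-/- PT cells (1.31-fold, adjusted p = 0.00191). Between genotypes it was higher in Tgfbr2-/- PT cells by 2.89 ± 0.14 (7.41-fold, adjusted p = 4.87e-18) without and by 2.34 ± 0.12 (5.06-fold, adjusted p = 1.67e-17) with H2O2. The H2O2 effect was smaller in Tgfbr2-/- PT cells by 0.55 ± 0.20 on the log2 scale, which did not pass the adjustment over all genes (adjusted p = 0.0838). That difference passed when counts were summed over transcripts (-0.61, adjusted p = 0.0258) and without untreated Tgfbr2fl/fl replicate 1 (-0.67, adjusted p = 0.0469). The representative transcript of Csf2ra retains an intron. The gene's 2 coding transcripts had the same counts in all 12 libraries, so they are 1 measurement. Between genotypes they gave 2.91 without and 2.33 with H2O2. For H2O2 they gave 0.96 in Tgfbr2fl/fl and 0.38 in Tgfbr2-/- PT cells.

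The shared β chain and the ligand of Csf2ra were near or at 0. The shared β chain Csf2rb had 2 counts over all 12 libraries. Its mouse paralog Csf2rb2, which is not that shared chain, had 1 count. Csf2rb and Csf2rb2 share near-identical sequence, and their counts are uncertain for that reason. Csf2 itself, at chr11:54247270-54249899 on the minus strand, had 0, 0 and 0 counts in untreated Tgfbr2fl/fl PT cells, 1, 3 and 2 with H2O2, 3, 0 and 1 in untreated Tgfbr2-/- PT cells and 1, 1 and 0 with H2O2. A count of 0 allows up to 3 counts in a library, a limit that covers counting error only, and every value was at or below it. Csf2 was not tested and no fold change is given.

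Csf3, at chr11:98700183-98703631 on the plus strand, was counted almost entirely in Tgfbr2-/- PT cells. Before normalization it had 1, 0 and 0 counts in untreated Tgfbr2fl/fl PT cells and 1, 0 and 0 with H2O2, against 23, 14 and 14 in untreated Tgfbr2-/- PT cells and 12, 3 and 11 with H2O2. Each of the 6 Tgfbr2-/- libraries had more counts than any of the 6 Tgfbr2fl/fl libraries, though the lowest of them had 3 counts. The Csf3 transcript shares 626 exon bases with a long non-coding RNA gene on the opposite strand, Gm38985, which was not analysed here.

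The ratio of summed Csf3 counts between genotypes, scaled to library size, was 46.7 without treatment (95% exact interval 8.02 to 1881, counting error only) and 21.9 with H2O2 (3.59 to 896). edgeR's test gave adjusted p = 4.96e-06 and 8.11e-04. Csf3 passed the expression filter only through Tgfbr2-/- libraries, so these p values are no separate support for the difference. A fitted fold change between genotypes is not given because it depends on the prior count. The fitted Csf3 values for H2O2 given below share that limit. In Tgfbr2-/- PT cells Csf3 had 0.460 times the untreated level with H2O2 (0.275 to 0.752), and the test missed the limit narrowly (log2 fold change -1.10 ± 0.45, adjusted p = 0.0506). That call moved with 1 library: it passed without treated Tgfbr2-/- replicates 1 or 3 (adjusted p = 0.0430 and 0.0474) and without untreated Tgfbr2fl/fl replicates 1 or 3 (adjusted p = 0.0459 and 0.0458). The Csf3 receptor, Csf3r, had 0 counts in every library.

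**Figure D4:**
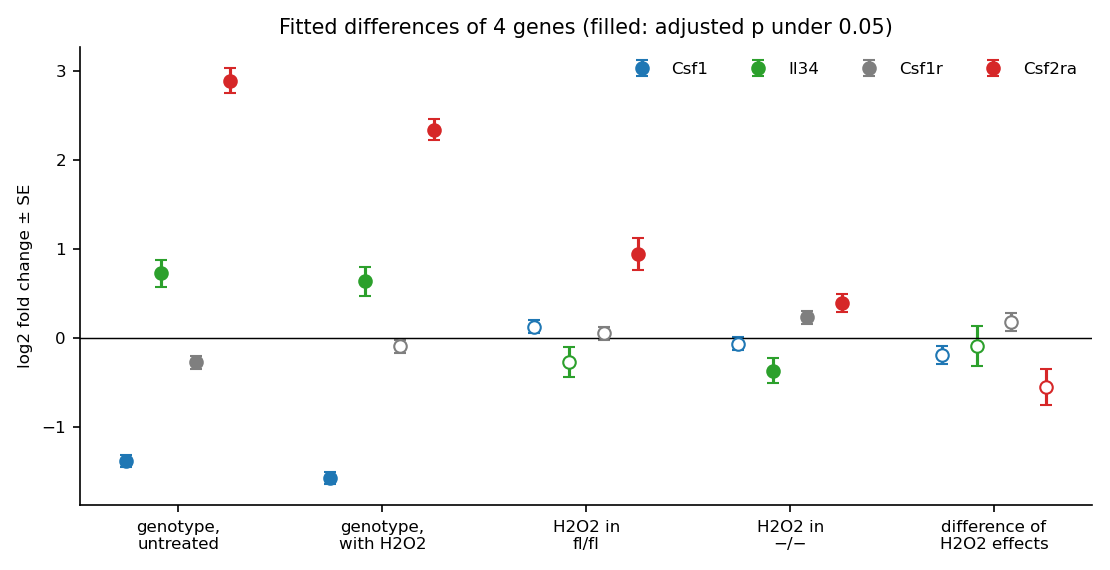
Log2 fold change with SE (y axis) of Csf1, Il34, Csf1r and Csf2ra in the 5 comparisons (x axis: Tgfbr2-/- against Tgfbr2fl/fl PT cells without and with H2O2, H2O2 against no treatment in each genotype, and the difference of the H2O2 effects); filled points passed an adjusted p of 0.05. Csf2ra and Il34 lay above and Csf1 below 0 in both genotype comparisons, while only Csf2ra passed for H2O2 in both genotypes.

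Of the other receptors and ligands of these systems, 3 of 9 listed genes could be tested. Il3ra and Il5ra encode the α chains for interleukin 3 and interleukin 5, which also signal through Csf2rb, and both were higher in Tgfbr2-/- PT cells, as Csf2ra was. Il3ra went from 33.6 ± 5.28 to 58.5 ± 4.87 normalized counts between untreated genotypes (log2 fold change 0.80 ± 0.20, adjusted p = 9.31e-04) and Il5ra from 136 ± 3.98 to 254 ± 29.1 (0.90 ± 0.11, adjusted p = 3.24e-08). With H2O2 they differed between genotypes by 0.57 and 1.33. In Tgfbr2fl/fl PT cells H2O2 raised Il3ra by 0.60 ± 0.21 (adjusted p = 0.0225), while Il5ra fell by 0.36 ± 0.13 (adjusted p = 0.0251).

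Sdc1, the cell-surface proteoglycan syndecan that binds Il34, had an H2O2 effect that differed between genotypes by -0.51 ± 0.10 (adjusted p = 5.65e-04). It rose with H2O2 by 0.22 in Tgfbr2fl/fl PT cells, from 6756 ± 725 to 7849 ± 156 normalized counts, and fell by 0.29 in Tgfbr2-/- PT cells, from 9709.8 ± 534 to 7927 ± 245. Il3 had 0 counts in all libraries, Il5 had 11 in total and Ptprz1, another receptor of Il34, had 19.

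The 6 pathway lists hold 71 genes, of which 56 were tested. Between untreated genotypes 15 rose and 25 fell, 71.4% of those tested against the 64.7% of all genes. With H2O2, 17 rose and 24 fell between genotypes, 73.2% against 66.4%. H2O2 raised 14 and lowered 21 in Tgfbr2fl/fl PT cells, 62.5% against 41.6%, and raised 19 and lowered 13 in Tgfbr2-/- PT cells, 57.1% against 39.6%. For 10 of the 56, or 17.9% against 10.2%, the effects differed. No test was made of these shares.

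Genes that process Csf1 or carry the Csf1r signal changed in both directions between untreated genotypes, 5 up and 10 down of 18. These 15 of 18 stand beside 64.7% of all genes tested. Furin, a convertase that matures the metalloprotease that sheds membrane-bound Csf1, fell by 0.87 ± 0.07 (adjusted p = 3.60e-12) and the Src-family kinase Fyn by 0.97 ± 0.07 (adjusted p = 1.22e-13). Inpp5d, the inositol phosphatase SHIP1, rose by 1.60 ± 0.11 (adjusted p = 4.35e-14). Plcg2, a phospholipase typical of blood cells, had 1.08 ± 0.0306 normalized counts in untreated Tgfbr2fl/fl PT cells and 218 ± 19.7 in untreated Tgfbr2-/- PT cells. Plcg2 passed the expression filter only through Tgfbr2-/- libraries, so its rise is not independent of that filter. With H2O2 the same 4 genes again led the list in each direction, with Furin at -0.93, Fyn at -0.94 and Inpp5d at 1.62. H2O2 raised the sheddases Adam17 and Adam10 in Tgfbr2fl/fl PT cells by 0.23 and 0.19 and lowered the ubiquitin ligase Cblb by 0.57. In Tgfbr2-/- PT cells it raised Plcg2 by 0.60 and the adaptor Gab2 by 0.31, and lowered the adaptor Shc1 by 0.26 and Fyn by 0.23.

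Of 15 JAK-STAT genes, 3 rose and 4 fell between untreated genotypes, so 7 of 15 were called, a share below the 64.7% of all genes. Ptpn6, the phosphatase SHP-1, had the largest rise, 2.45 ± 0.14 (adjusted p = 4.01e-16), from 52.7 ± 11.2 to 288 ± 31.6 normalized counts, and the survival gene Bcl2l1 rose by 0.74. Socs2, a feedback inhibitor, fell by 1.51 ± 0.15 (adjusted p = 1.93e-10), and Stat5b fell by 0.70. With H2O2 the largest differences were 2.67 for Ptpn6, 0.81 for the kinase Jak2, -1.01 for Socs1 and -0.55 for Socs2. H2O2 in serum-free medium raised Socs3, the feedback inhibitor of Csf3 signalling, by 0.52 ± 0.10 (adjusted p = 9.55e-05) in Tgfbr2fl/fl and by 0.66 ± 0.10 (adjusted p = 1.54e-06) in Tgfbr2-/- PT cells. It lowered Bcl2l1 in both, by 0.34 and 0.27. Tyk2 rose by 0.21 and Socs2 fell by 1.30 in Tgfbr2fl/fl PT cells, and Cish rose by 0.42 and Pim1 fell by 0.29 in Tgfbr2-/- PT cells.

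Of 10 tested NF-κB subunits and feedback genes, 7 fell and 0 rose between untreated genotypes, and 6 fell and 0 rose with H2O2. The shares called, 7 and 6 of 10, were near the 64.7% and 66.4% of all genes, among which 4069 and 4065 of 12971 fell. Their median log2 fold change was -0.41 without treatment, against 0.01 over all genes tested. Nfkb1, which encodes the p50 precursor, fell by 0.93 ± 0.06 (adjusted p = 2.89e-15) and its inhibitor Nfkbie by 1.09 ± 0.20 (adjusted p = 1.29e-05), and by 0.92 and 0.69 with H2O2. H2O2 raised Relb by 0.39 ± 0.08 in Tgfbr2fl/fl PT cells and by 0.58 ± 0.09 in Tgfbr2-/- PT cells (adjusted p = 3.14e-04 and 2.86e-06), and lowered Nfkbia, the classical inhibitor, by 0.35 and 0.25. It also raised Nfkb2 by 0.16 and lowered Nfkbib by 0.29 in Tgfbr2fl/fl PT cells, and raised Nfkbie by 0.80 and lowered Tnfaip3 by 0.43 in Tgfbr2-/- PT cells.

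Of 11 listed chemokines and cytokines that act on macrophages, 7 were tested, and 3 rose and 3 fell between untreated genotypes. These 6 of 7 stand beside 64.7% of all genes tested. Ccl2, the chief monocyte attractant, fell by 1.43 ± 0.09 (adjusted p = 7.78e-15) and Cxcl10 by 1.19 ± 0.09 (adjusted p = 4.41e-13), the direction of Csf1. Cxcl1, a neutrophil attractant, rose by 1.42 ± 0.08 (adjusted p = 4.21e-17), the direction of Csf3, and Spp1 (osteopontin) rose by 0.49. With H2O2 these 4 again led the list, at -1.5, -1.16, 1.96 and 0.83. H2O2 raised Ccl2 by 0.96 ± 0.08 in Tgfbr2fl/fl and by 0.89 ± 0.10 in Tgfbr2-/- PT cells (adjusted p = 1.50e-11 and 8.08e-09), whereas Csf1 did not pass in either. Cx3cl1, the membrane-bound fractalkine, rose by 1.47 ± 0.09 and 0.61 ± 0.08 (adjusted p = 4.42e-15 and 7.67e-07). Cxcl1 fell by 1.11 and 0.57, and Mif, macrophage migration inhibitory factor, by 0.67 and 0.50. Il6 and Tnf had 0 counts in all libraries.

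**Figure D5:**
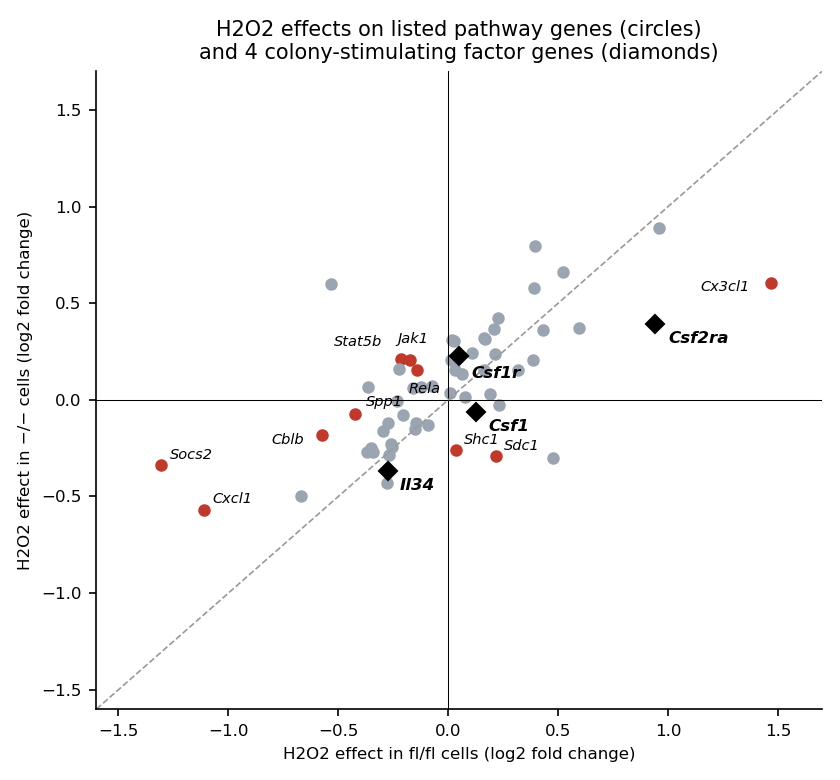
H2O2 effect in Tgfbr2fl/fl PT cells (x axis) against that in Tgfbr2-/- PT cells (y axis), both as log2 fold change, for the 56 tested pathway genes (circles) and 4 colony-stimulating factor genes (diamonds); red circles are the 10 genes whose effects differed at an adjusted p of 0.05, and the dashed line marks equal effects. Cx3cl1 and Csf2ra lay below the line on the right, at 1.47 against 0.61 and at 0.94 against 0.39, and Csf1 lay near the origin.

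The receptor tyrosine kinases closest to Csf1r were scarce. Kit, Flt3 and Pdgfra did not pass the filter, and Pdgfrb, whose end lies 20504 bases before Csf1r on the same strand, had 16.3 ± 4.67 normalized counts in untreated Tgfbr2fl/fl PT cells and 2.41 ± 3.38 in untreated Tgfbr2-/- PT cells. Kitl, the gene of the Kit ligand, rose between genotypes by 0.85 ± 0.09 (adjusted p = 3.68e-10) without and 0.95 ± 0.09 (adjusted p = 6.64e-11) with H2O2. It fell with H2O2 by 0.37 in Tgfbr2fl/fl and by 0.27 in Tgfbr2-/- PT cells. These were also the directions of Il34. The Il34 change with H2O2 did not pass in Tgfbr2fl/fl PT cells, and its call in Tgfbr2-/- PT cells was fragile.

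The genes most like each member were ranked by Pearson's r of log2 normalized counts over the 12 libraries among protein-coding genes, a description in which the 4 groups make up most of the spread. Csf1 was closest to the matrix protease gene Adamts5 (r = 0.999), Edem1 and Txndc5 (both r = 0.997), and 793 of 11041 genes exceeded an r of 0.95. Csf2ra was closest to Pla2g7, St6galnac2 and the chemokine gene Cxcl16 (each r = 0.997), with 559 genes over 0.95. Csf1r was closest to Scaf1 (r = 0.969), Rgma (0.947) and Kdm6b (0.941), with 1 gene over 0.95. Il34 was closest to Ptgr3 (r = 0.967), Fcgbpl1 (0.957) and Tango2 (0.95), and Csf3 to Tmem79 (0.963), Phf7 and Nectin1 (both 0.962).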

How the data were processed

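RNA was measured in 12 libraries of PT cells, 3 per group, mapped to groups by their sample labels. The authors trimmed reads with fastp, aligned them by STAR to the mouse build GRCm38.p6, annotated by GENCODE M23, used featureCounts for counting, and deposited whole-number counts per transcript without normalization. Of 106332 transcripts, 104820 matched GENCODE M39 by identifier. The other 1512, with at most 1.28% of a library's counts, were left out. The test design had presumed counts per gene.

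Counts were tested in R 4.3.3 with edgeR 4.0.16 (TMM, filterByExpr, glmQLFit and glmQLFTest, 1 mean per group over all 12 libraries). The Benjamini-Hochberg adjustment covered all 12971 genes tested, and genes were called at an adjusted p of 0.05. Intervals for genes with few counts are exact binomial at 95%. In simulated counts with 2-fold changes, edgeR found 172 of the 199 altered genes for the difference of H2O2 effects, with 7 unchanged genes called, over 12771 genes. The simulated spread was preset. The recovery does not measure power for smaller differences, such as those of Csf1, Il34, Csf1r and Csf2ra, which were below 2-fold.

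The members, the 6 pathway lists, the marker lists, motifs and tests were chosen with earlier results of these data known. Named genes are the members, the first pathway list, the up to 2 largest rises and 2 largest falls past the threshold per list and comparison, and the 3 most correlated protein-coding genes with a mean of at least 50 normalized counts; marker genes, and scarce genes at or near 0, were named after their values were seen. Alternatives were DESeq2 1.42.0, its size factors in edgeR, other count filters, the replicate number as a block, only the groups compared, counts summed over transcripts, coding transcripts, and leaving out each library. Fits on other transcripts of a member were added after seeing the data. The labels name a Qiagen and the paper a Macherey-Nagel kit for RNA.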

Additional observations from a re-analysis of the deposited data

Results flagged for a closer look

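No member of the colony-stimulating factor family had an H2O2 effect that differed between genotypes past an adjusted p of 0.05. The effect differed for Tgfbr2 and for 10 of the listed pathway genes by edgeR's test of the difference, given here as the log2 effect in Tgfbr2-/- minus that in Tgfbr2fl/fl PT cells. For Cx3cl1 it was -0.86, with both effects positive. For Tgfbr2 it was -0.57, from a rise of 0.70 in Tgfbr2fl/fl PT cells and a value of 0.13 in Tgfbr2-/- PT cells that did not pass. Sdc1, at -0.51, rose in one line and fell in the other. For Shc1 it was -0.29, from 0.03 to a fall of 0.26.

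In the other 7 genes the difference was positive. Cxcl1 (0.54) and Cblb (0.39) fell in both lines and less in Tgfbr2-/- PT cells. Socs2, at 0.97, fell by 1.30 in Tgfbr2fl/fl PT cells, with -0.34 in Tgfbr2-/- PT cells, and Spp1, at 0.35, fell by 0.42, with -0.07. Stat5b (0.43), Jak1 (0.38) and Rela (0.29) had effects of opposite sign, from -0.22, -0.17 and -0.14 to 0.21, 0.21 and 0.15.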

How the results depend on the processing

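The number of genes of the family past the threshold was within 1.5 times the reported one under all planned settings for both genotype comparisons and for H2O2 in Tgfbr2-/- PT cells. Leaving out each library in turn gave between 1 and 2 genes for H2O2 in Tgfbr2fl/fl PT cells, where 1 was reported, and between 0 and 2 for the difference of H2O2 effects, where 0 was reported. Counts summed over transcripts gave 1 gene for that difference. Of 591 fitted values of single genes under other settings, 567 kept direction and side of the threshold. The sign changed in values that never passed: leaving out libraries moved the H2O2 effect in Tgfbr2fl/fl PT cells between -0.028 and 0.12 for Csf1r and between -1.96 and 1.95 for Csf3, and the difference of effects between -0.21 and 0.10 for Il34 and between -3.07 and 0.84 for Csf3. Their cause was not tested. The number of listed pathway genes past the threshold stayed within 1.5 times the reported one in every comparison and setting, between 24 and 36 for H2O2 in Tgfbr2fl/fl PT cells.

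The replicate numbers did not pair the samples: over 18 same-numbered pairs of libraries, deviations from group means correlated between -0.08 and 0.05. With the replicate number as a block, called genes of the family numbered 5, 4, 1, 4 and 0 in the order genotype without and with H2O2, H2O2 in Tgfbr2fl/fl and in Tgfbr2-/- PT cells, and difference of effects. The added gene was Csf3 (-1.11, adjusted p = 0.0441), which also passed in a fit of only the groups compared (-1.12, adjusted p = 0.0332). Over all genes, the replicate block called 8287 in place of 8387 between untreated genotypes and 1202 in place of 1321 for the difference of effects. Depth limits Csf2 and Csf3 most, with 12 and 79 counts in all.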
